A study of Mus musculus with 2 samples.

Results

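Plasmacytoid dendritic cells were examined among leukocytes sorted from mouse liver tumours, in a DMSO and an STK library of single-cell RNA. A barcode counted as a member when it held at least 2 UMIs (unique molecular identifiers, 1 per captured transcript) of Siglech, at least 2 of Ccr9, Klk1 and Cox6a2 together, none of the CD3 genes Cd3d, Cd3e and Cd3g, and at most 2 of C1qa, C1qb and C1qc. It also needed at least 500 UMIs, 250 genes and at most 10% mitochondrial UMIs. Of 21998 kept barcodes, 1415 met the rule, 670 of 11152 in the DMSO library and 745 of 10846 in the STK library. Siglech, Ccr9, Klk1, Cox6a2, the CD3 genes and the C1q genes chose the members, so members were chosen by measured values, and the levels of these genes are given as a description.

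The mice are labelled MYC-ON, and the labels do not say which promoter drives MYC. Both groups had hepatocellular carcinoma and were gavaged, the control group with DMSO and the other with STK, an agent the labels describe no further. Tumours were dissociated, DAPI marked dead cells, and cells with surface CD45, the leukocyte antigen, were sorted into a droplet 5′ assay. How many animals were pooled, and of which sex and age, the labels do not say, and both libraries carry the same batch label. With 1 library per group there is no replicate check, no test was run, and every interval below covers counting error alone. In sorted suspensions, a gene's summed level cannot separate fewer expressing cells from less RNA per cell unless counts per cell are given beside it.

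Plasmacytoid dendritic cells are a rare dendritic lineage that senses nucleic acids in endosomes through TLR7 and TLR9 and can release large amounts of type I interferon. The transcription factor TCF4 (E2-2) sets and keeps their identity, with IRF8, RUNX2 and SPIB acting beside it. In tumours they are often described as poor interferon producers, and they can also present antigen on class II molecules.

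The gate recovered cells with the markers of this lineage, including those the rule did not use. Tcf4 stood at 867 CPM (counts per 1000000 UMIs of the gated cells) in DMSO and 844 CPM in STK members, against 31.2 and 38.0 CPM in all other kept cells. Ly6d, a surface antigen of pDC and B lineage cells, was at 2203 and 2245 CPM, against 27.0 and 58.5 CPM. Irf8 had 3016 and 2403 CPM in the members and 179 and 271 CPM elsewhere. Bst2, the surface antigen PDCA-1 (tetherin), had 4801 and 4979 CPM against 507 and 584 CPM. Spib was at 250.3 and 353 CPM, with 5.73 and 8.55 CPM elsewhere, and Runx2 at 411 and 353 CPM, with 18.5 and 24.3 CPM. Each of these 6 markers was thus far above the other kept cells in both libraries, although the gate was set on genes of the same cells and this comparison is no test.

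Of the markers that chose the cells, Siglech, which encodes a receptor of the Siglec family, had 8099 UMIs in DMSO and 10785 in STK members. Its count per cell ran from 2 through a median of 12 to 37 in DMSO, and from 2 through 14 to 47 in STK members. Ccr9, the receptor for the gut chemokine CCL25, was at 695 and 573 CPM. Klk1, a kallikrein protease, was at 2667 and 3276 CPM, and Cox6a2, a muscle-type cytochrome oxidase subunit, at 784 and 939 CPM. Klk1 and its neighbour Klk1b27, at 332 and 382 CPM, belong to a family of near-identical genes, so the split of reads among them is uncertain.

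The promoter windows of the genes that set the gate are shown because TCF4 belongs to the basic helix-loop-helix class that binds E-boxes. Each line gives the 250 bases before the RefSeq start in GRCm38.p6, 5′ to 3′ on the gene's strand, with every E-box, CANNTG on either strand, in capitals. The Siglech window is chr7:55767934-55768183, that of Klk1 chr7:44225110-44225359 and that of Ccr9 chr9:123766961-123767210, all on the plus strand.
Siglech: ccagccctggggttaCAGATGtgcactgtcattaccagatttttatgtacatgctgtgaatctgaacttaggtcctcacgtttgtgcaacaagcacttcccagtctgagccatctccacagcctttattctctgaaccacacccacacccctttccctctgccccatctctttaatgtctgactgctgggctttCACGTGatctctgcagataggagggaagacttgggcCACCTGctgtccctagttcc
Klk1: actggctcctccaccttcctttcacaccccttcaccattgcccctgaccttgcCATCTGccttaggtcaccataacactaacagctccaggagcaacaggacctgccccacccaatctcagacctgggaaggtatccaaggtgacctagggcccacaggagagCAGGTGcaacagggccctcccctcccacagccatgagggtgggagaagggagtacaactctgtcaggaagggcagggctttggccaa
Ccr9: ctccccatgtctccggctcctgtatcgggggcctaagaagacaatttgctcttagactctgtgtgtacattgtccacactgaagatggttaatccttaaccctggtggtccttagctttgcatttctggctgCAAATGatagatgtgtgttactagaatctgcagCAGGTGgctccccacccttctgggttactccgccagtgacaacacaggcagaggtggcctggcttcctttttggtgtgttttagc
The Siglech window held 3 E-boxes, and those of Klk1 and Ccr9 held 2 each. In each of the 3 windows, 1 of these was CAGGTG or its reverse complement, and none was CAGCTG. Among 27025 promoter windows of the same length, 66.0% held a CANNTG, 17.1% held CAGGTG and 12.8% held CAGCTG. A match describes letters and is not a binding site, and these data do not measure binding. Klk1 lies at chromosome 7 from 44225360 to 44229618 (plus strand) and Siglech at chromosome 7 from 55768178 to 55778925 (plus strand). The Ccr9 gene spans chromosome 9 from 123678439 to 123784330 (plus strand), so its window, at a start inside the gene model, lies within the gene.

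**Figure D1:**
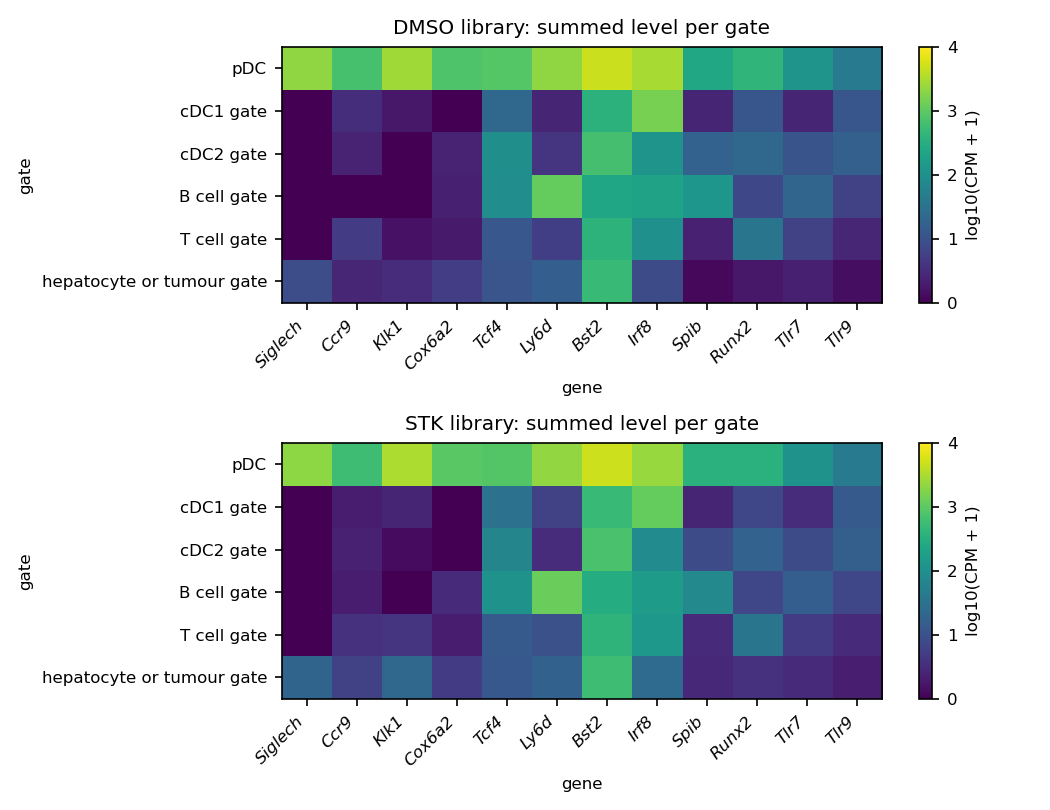
Summed level of 12 pDC genes, as log10(CPM + 1), in the pDC gate and in 5 comparison gates of each library (rows), with the DMSO library above and the STK library below. The pDC row has the highest level of each of the 12 genes in both libraries, while Ly6d is also high in the B cell gate and Irf8 in the cDC1 gate.

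The comparison gates show which of these markers other cells share. In a B cell gate (at least 3 UMIs of B cell markers), Ly6d was at 1118 CPM in DMSO and 1210 CPM in STK cells. In a cDC1 gate (at least 2 UMIs of Xcr1 and Clec9a), Irf8 was at 1494 and 1132 CPM. Irf8 and Ly6d therefore mark the members only together with the other genes. Share of cells with a UMI gave the same picture when each cell was thinned to 1000 UMIs. Tcf4 was found in 58.7% (54.8 to 62.4) of DMSO and 59.1% (55.5 to 62.6) of STK members, and in 96.6% and 97.2% without thinning. In a T cell gate (at least 2 CD3 UMIs), which should lack it, the thinned shares were 0.876% and 0.790%, with median depths of 3803.5 and 3734.5 UMIs against 4945 and 5589 UMIs in the members.

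The threshold cut a thin tail. Members with exactly 2 Siglech UMIs numbered 6 in DMSO and 7 in STK, and those with exactly 2 UMIs of Ccr9, Klk1 and Cox6a2 numbered 13 and 9. These 18 DMSO and 14 STK barcodes just inside had Tcf4 at 978 and 855 CPM. The 40 and 27 barcodes just outside, with 1 Siglech UMI or 1 UMI of the trio, had Tcf4 at 732 and 361 CPM and Ly6d at 732 and 633 CPM. The rule on CD3 left out 60 DMSO and 125 STK barcodes that met both minima, with median depths of 8185 and 9425 UMIs.

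Some features of the libraries touch every comparison that follows. The members held 3683579 UMIs in DMSO and 5212101 in STK, and per cell the median was 4945 and 5589 UMIs, from 2024 and 2213 genes. Cells of over 10000 UMIs were 4.48% of DMSO and 14.4% of STK members. Cells with both Xist, the X-inactivation RNA of female cells, and a Y-linked UMI were 2.09% and 5.91%, and those with at least 5 UMIs of the neutrophil genes S100a8, S100a9 and Retnlg were 9 and 35 cells. A Scrublet doublet score over 0.25 was more frequent in DMSO, at 8.06% against 5.50% of members. A member with any of these features or at least 5 UMIs of the myeloid lysozyme gene Lyz2 was called a possible doublet, 88 of 670 (13.1%) in DMSO and 182 of 745 (24.4%) in STK. Values without these cells are given for the main counts and genes. Female cells, with Xist and no Y-linked UMI, were 20.5% (16.8 to 24.7) of the sexed members in DMSO and 77.7% (74.1 to 81.1) in STK, so the treatment, the sex mix and the animals cannot be told apart. The libraries shared 203 barcodes, and no barcode was a member in both.

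Plasmacytoid dendritic cells made up a slightly larger share of the STK library. Their share was 6.01% (5.57 to 6.46) in DMSO and 6.87% (6.40 to 7.36) in STK, a ratio of 1.14 (1.03 to 1.27). Among female cells the shares were 8.39% and 9.54%, a ratio of 1.14 (0.9004 to 1.45), and among male cells 7.50% and 7.77%, a ratio of 1.04 (0.837 to 1.28). These shares cover only cells that could be sexed, 1025 female and 4439 male kept cells in DMSO and 4613 and 1621 in STK. Of the members, 35.4% in DMSO and 18.1% in STK had neither Xist nor a Y-linked UMI. The shares by sex therefore leave out many cells and differ from those of the whole libraries. Without the Scrublet-marked cells alone the ratio was 1.18. Without all possible doublets, a set defined after the data were seen that holds more STK than DMSO members, it was 0.940. For both values the marked cells were left out of the members and of all kept cells. Other cell types with these features thus left the denominator too, so 0.940 does not describe a change in the members alone. Of the members, 582 in DMSO and 563 in STK remained.

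Most genes of the members had similar levels in the 2 libraries. Of 10335 genes tested, those with 30 or more UMIs in the 2 libraries combined, 762 (7.37%) were at least 1.5 times higher in STK members and 519 (5.02%) at least 1.5 times lower, and the median log2 ratio was 0.008. Without possible doublets, 505 of 8942 genes were higher (5.65%) and 502 were lower (5.61%), with a median of 0.001. In all other kept cells, 1103 of 15581 genes were higher (7.08%) and 1210 were lower (7.77%), with a median of -0.061. These shares over all genes are the background for the list counts below.

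**Figure D2:**
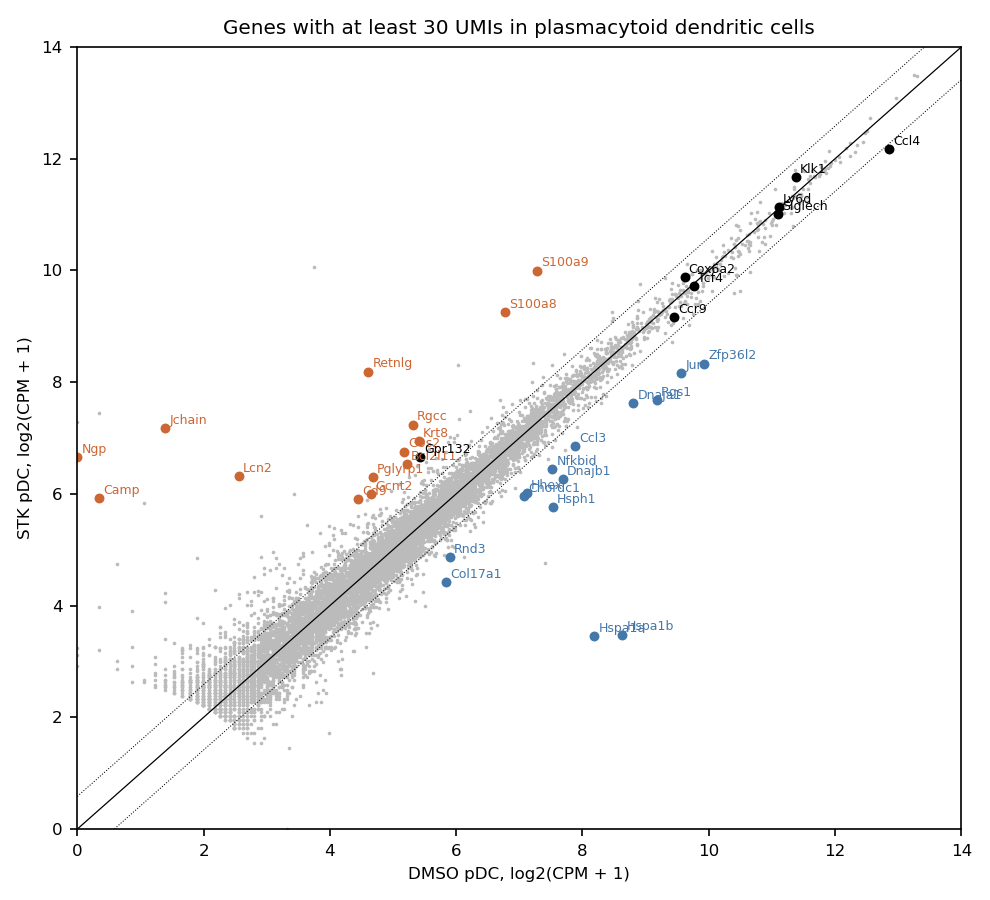
Level of each gene with at least 30 UMIs in DMSO members (x axis) against STK members (y axis), both as log2(CPM + 1), with equality as a solid line and 1.5-fold as dotted lines. Orange and blue mark the 14 highest and 14 lowest genes of the naming rule, and black marks lineage genes with Ccl4 and Gpr132. Hspa1a and Hspa1b lie far below the line at 9.98 and 10.2 CPM in STK members.

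The pDC identity list had 44 genes, all measured, and none was past 1.5-fold in either direction. Over all genes of the members, 7.37% were higher and 5.02% lower. The list includes Siglech, Ccr9, Klk1 and Cox6a2, which set the gate. The list's median log2 ratio was -0.049 in the members, while in other kept cells, where 15 of the 44 were higher, it was 0.411. Over all genes of the other kept cells, 7.08% were higher and 7.77% lower. Those other cells include barcodes that met both minima but failed on CD3, 60 in DMSO and 125 in STK, or on C1q alone, 12 and 25. The barcodes left out for CD3 carried Ly6d at 1115 and 1408 CPM. Their part in the median of the other cells was not tested. Siglech, Ccr9, Klk1 and Cox6a2 had ratios of 0.941 (0.914 to 0.969), 0.824 (0.781 to 0.869), 1.23 (1.20 to 1.26) and 1.20 (1.14 to 1.25), values that the gate itself constrains. For the transcription factors the gate did not use, Tcf4 had a ratio of 0.973 (0.930 to 1.02), Runx2 0.858, Irf8 0.797 and Bcl11a, a partner in pDC specification, 0.727. Spib, which acts with TCF4, was the identity gene furthest above equality at 1.41 (1.30 to 1.53), with 1.47 within female, 1.502 within male cells and 1.54 without possible doublets. A Spib UMI was present in 452 of 670 DMSO and 618 of 745 STK members. The lymphoid gene Dntt, which adds bases at receptor gene joints and marks lymphoid history, was at 128 and 139 CPM against 0.780 and 2.38 CPM elsewhere. Lair1, a collagen-binding inhibitory receptor, stood at 577 and 622 CPM, and Pacsin1, a membrane-bending adaptor, at 304 and 334 CPM.

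The inducible chaperones gave the largest difference in which STK members were lower. Hspa1b and Hspa1a encode the inducible HSP70 protein that refolds damaged proteins, and their coding sequences are almost the same, so how reads divide between them is uncertain. Hspa1b, in GRCm38 at chromosome 17 from 34956436 to 34959238 on the minus strand, had 1460 UMIs in DMSO and 53 in STK members, 396 and 10.2 CPM, and was 39.0 times lower. Hspa1a (ENSMUSG00000091971, chromosome 17 from 34969190 to 34972156, minus strand) had 1071 and 52 UMIs and was 29.1 times lower. Without possible doublets, 1177 and 14 UMIs of Hspa1b and 840 and 10 of Hspa1a remained, 89.7 and 89.6 times lower. Together they were found in 265 of 670 DMSO and 39 of 745 STK members, with at least 5 UMIs in 149 and 4. The DMSO members were thus uneven: most held none, and the cell with the most held 179 UMIs.

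The windows before the starts of 3 chaperone genes are shown because heat shock factor binds repeats of GAA. Capitals mark GAANNTTC or TTCNNGAA, adjoining units of its element in either order, which read the same on both strands. The windows are chr17:34959239-34959488 (minus strand) for Hspa1b, chr17:34972157-34972406 (minus) for Hspa1a and chr8:83607925-83608174 (plus) for Dnajb1, from RefSeq in GRCm38.p6.
Hspa1b: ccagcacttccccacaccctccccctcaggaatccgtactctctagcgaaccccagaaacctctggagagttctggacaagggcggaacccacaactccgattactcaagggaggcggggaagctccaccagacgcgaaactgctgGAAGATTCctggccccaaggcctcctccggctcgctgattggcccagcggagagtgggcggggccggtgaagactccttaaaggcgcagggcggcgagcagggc
Hspa1a: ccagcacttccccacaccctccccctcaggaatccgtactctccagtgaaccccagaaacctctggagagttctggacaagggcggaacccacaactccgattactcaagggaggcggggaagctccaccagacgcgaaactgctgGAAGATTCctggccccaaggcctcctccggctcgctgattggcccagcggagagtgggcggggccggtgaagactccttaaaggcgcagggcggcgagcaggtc
Dnajb1: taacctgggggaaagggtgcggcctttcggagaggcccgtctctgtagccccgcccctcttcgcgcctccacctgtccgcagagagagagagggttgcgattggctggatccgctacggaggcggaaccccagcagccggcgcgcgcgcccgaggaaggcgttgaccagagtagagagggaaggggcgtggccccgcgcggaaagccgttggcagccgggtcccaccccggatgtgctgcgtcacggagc
The Hspa1b and Hspa1a windows differed at 3 of 250 bases, and each held 1 match, starting 104 bases before the start. The Dnajb1 window held none, although Dnajb1 was lower in STK members, while the window of Hspe1, the mitochondrial HSP10, held 3 matches and Hspe1 stood at 787.5 and 771 CPM. Of the other windows searched, those of Hsph1 and Dnaja1 held 1 each, and those of Chordc1, Cacybp, Stip1 and Hspd1 none. Genes with and without a match were thus both among those lower in STK members. Of all 27025 windows, 12.9% held at least 1 such match, 6.78% GAANNTTC and 7.10% TTCNNGAA. These letters were searched after the values of the genes had been seen.

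Of 20 heat shock genes, all measured, 10 were at least 1.5 times lower in STK members and none was higher. Their median log2 ratio was -0.595, against 0.008 over all tested genes, of which 5.02% were at least 1.5 times lower and 7.37% higher. Hsph1, an HSP110 nucleotide exchange factor, had 184 and 53.5 CPM and was 3.44 times lower. Dnajb1, the HSP40 co-chaperone of HSP70, had 205 and 76.2 CPM (2.69 times lower), and Dnaja1, another HSP40, 447 and 197 CPM (2.27 times lower). Chordc1, an HSP90 co-chaperone, was 2.18 times lower, and Cacybp, a calcyclin-binding protein, 1.80 times lower. The constitutive Hspa8 (2594 and 1766 CPM) and Hsp90aa1 (861 and 595 CPM) were 1.47 and 1.45 times lower, short of the fold used. Hsp90ab1 and Hspe1 had ratios of 1.04 and 0.979.

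Other cells of the same libraries also carried lower chaperone RNA in STK. The heat shock median in all other kept cells was -0.291, with 4 of 20 genes at least 1.5 times lower, beside 7.77% of all genes there. Hspa1b in those cells was at 338 and 27.0 CPM. After thinning, an Hspa1b UMI was found in 20.9% (17.9 to 24.2) of DMSO and 0.673% (0.219 to 1.56) of STK members, and in 17.1% and 0.872% of the T cell gate. Unthinned, these shares were 34.5% and 3.49% of members and 30.9% and 2.94% of T cells. Within the members the list's median was -0.292 in female and -0.781 in male cells. Without possible doublets it was -0.894, with 13 of 20 lower, beside 5.61% of all genes. In DMSO members without possible doublets, Hspa1a was at 144 CPM in female and 365 CPM in male cells, a ratio of 0.395 (0.290 to 0.527). Hspa1b was at 206 and 546 CPM, a ratio of 0.377 (0.293 to 0.480). In STK, female cells held 8 and 10 UMIs of the pair and male cells 1 and 2. With 1 library each, the treatment, the sex mix and the preparation of the library cannot be told apart.

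**Figure D3:**
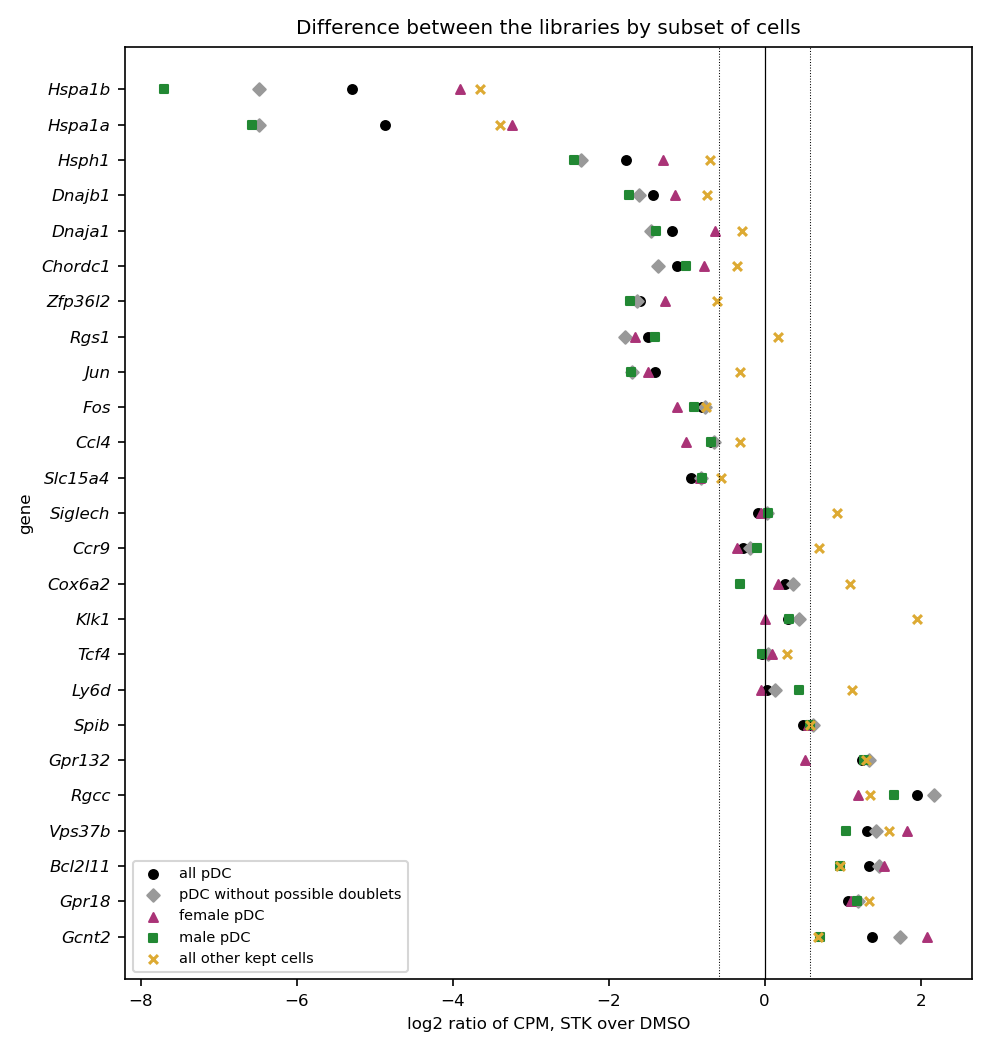
Log2 ratio of CPM, STK over DMSO, for 25 genes in all members, members without possible doublets, female members, male members and all other kept cells, with dotted lines at 1.5-fold. The 12 upper genes lie left of equality in all 4 sets of members, and the male points of Hspa1b and Hspa1a rest on 2 and 3 STK UMIs.

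Zfp36l2 was among the genes with the largest differences outside the heat shock list. Zfp36l2 (ENSMUSG00000045817, chromosome 17 from 84183931 to 84187947, minus strand) binds AU-rich RNA and speeds its decay. It had 3591 and 1677 UMIs, 975 and 322 CPM, and was 3.03 times lower (3.12 times without possible doublets), with a median of 4 UMIs per DMSO and 2 per STK cell. After thinning, a Zfp36l2 UMI was found in 57.5% of DMSO and 26.9% of STK members. In the T cell gate the thinned shares were 62.8% and 41.3%, so Zfp36l2 was lower there as well (unthinned, 93.3% and 74.6% of members and 92.3% and 80.9% of T cells). The AP-1 subunit Jun had 755 and 284 CPM (2.65 times lower, and 3.24 without possible doublets) and its partner Fos 1348 and 774 CPM (1.74 times lower). A Jun UMI was found in 38.5% and 18.3% of thinned members and in 24.0% and 15.8% of the T cell gate (77.5% and 52.5%, and 52.4% and 40.6%, unthinned). The hepatocyte or tumour gate went the other way for Jun, at 26.1% and 45.4% after thinning. Nfkbid, a nuclear regulator of NF-kB, was 2.12 times lower in the members, with a ratio of 1.24 in other kept cells. Immediate early genes showed no shared direction: of 31 measured, 5 were higher and 6 lower, with a median of -0.052, and without possible doublets 8 of 30 were higher and 6 lower. Over all genes 7.37% were higher and 5.02% lower, and 5.65% and 5.61% without possible doublets. Nr4a3, an orphan nuclear receptor, had 42 and 221 UMIs and was 3.72 times higher, and Nr4a1, its relative, was at 298 and 430 CPM.

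Rgs1, which shortens signalling by chemokine receptors, was lower in STK members although other kept cells had similar levels. Rgs1 (ENSMUSG00000026358, chromosome 1 from 144242296 to 144249242, minus strand) had 2126 UMIs in DMSO and 1066 in STK members, 577 and 204.5 CPM, and was 2.82 times lower, with a ratio interval of 0.329 to 0.382. The ratio was 0.317 within female and 0.379 within male cells, 0.289 without possible doublets, and 1.12 in all other kept cells. After thinning, an Rgs1 UMI was found in 30.9% of DMSO and 14.4% of STK members, and in 37.4% and 44.6% of the T cell gate (63.4% and 44.0%, and 68.1% and 76.3%, unthinned). Of 13 measured genes of the RGS, receptor kinase and arrestin list, 3 were lower and none higher (2 of 9 lower without possible doublets), and Rgs18 was at 108 and 65.6 CPM. Rgs10, another member, had a ratio of 0.926. Over all genes 5.02% were lower and 7.37% higher, and 5.61% and 5.65% without possible doublets.

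The chemokine genes Ccl4 and Ccl3, whose products attract leukocytes, were lower in STK members. Ccl4 (chromosome 11 from 83662584 to 83664683, plus strand) had 27433 UMIs in DMSO and 24018 in STK members, 7447 and 4608 CPM, a ratio of 0.619 (0.608 to 0.630), and 0.640 without possible doublets. The quartiles per cell were 4, 27 and 62 UMIs in DMSO and 5, 17 and 44 in STK, so the middle and upper cells held fewer. Ccl4 was found in 77.8% of thinned DMSO and 74.3% of thinned STK members (86.9% and 90.9% unthinned), against 17.2% and 15.5% of the T cell gate (30.8% and 29.2% unthinned). Ccl3 had 867 and 599 UMIs and was 2.05 times lower, with 90% of its DMSO UMIs in 74 cells. Its ratio was 0.286 within female and 0.850 within male cells.

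**Figure D4:**
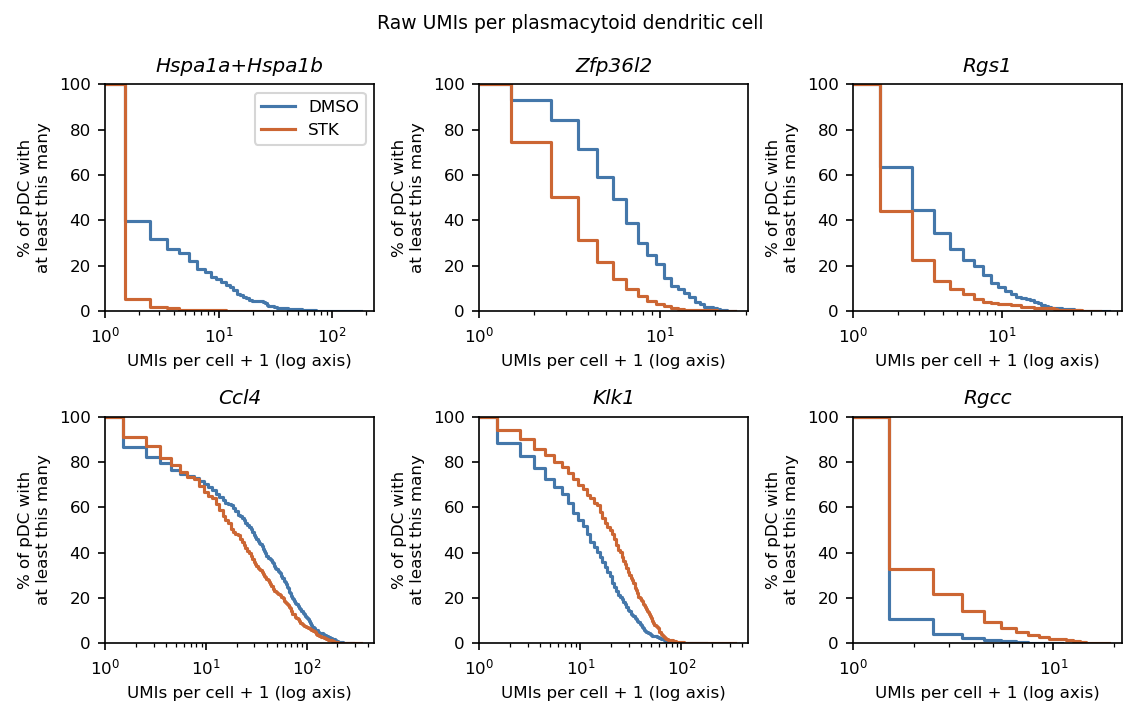
Share of members (y axis, in percent) with at least a given number of raw UMIs (x axis, UMIs + 1, log scale) of 6 genes, DMSO in blue and STK in orange. The STK curve lies below for Hspa1a+Hspa1b, Zfp36l2 and Rgs1 and above for Klk1 and Rgcc, and the Ccl4 curves cross at low counts.

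Further genes lower in STK members included Hhex, a homeobox factor needed in lymphoid development, at 138 and 63.5 CPM (2.17 times lower) with a ratio of 1.00 in other kept cells. Rnd3, an atypical GTPase, was 2.08 times lower with 216 and 147 UMIs. Col17a1, a transmembrane collagen, was found in 144 DMSO and 76 STK members and was 2.78 times lower, with a ratio of 0.664 within male cells from 102 and 30 UMIs. Kdr, the VEGF receptor VEGFR2, was 2.43 times lower without possible doublets, at 52.5 and 21.6 CPM. All 14 genes of the lower ranking had ratios under 1 within female cells, within male cells and without possible doublets, and 12 of the 14 were also in the ranking without possible doublets.

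Nucleic acid sensing, the function for which the lineage is known, was close to equal. Tlr7, the endosomal receptor for single-stranded RNA, had 422 and 591 UMIs, 115 and 113 CPM, a ratio of 0.990 (0.872 to 1.12). Tlr9, the receptor for unmethylated DNA, had 161 and 229 UMIs, 43.7 and 43.9 CPM, a ratio of 1.01 (0.818 to 1.24). Their shares of thinned members were 11.3% and 11.7% for Tlr7 and 5.67% and 4.58% for Tlr9, and the T cell gate gave 0.386% and 0.300% for Tlr7 and 0.105% and 0.109% for Tlr9. Unthinned, the members gave 43.9% and 50.2% for Tlr7 and 20.0% and 25.1% for Tlr9. Unc93b1, which carries these receptors to endosomes, was at 851 and 975 CPM, and Pld4, an endosomal nuclease, at 1434 and 1294 CPM.

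Slc15a4, an endolysosomal transporter that TLR7 and TLR9 signalling needs, was the single member of the 22 measured sensing genes past 1.5-fold. Over all genes 5.02% were at least 1.5 times lower and 7.37% higher, so the count of lower sensing genes is near the share of all genes. Slc15a4 had 774 and 571 UMIs, 210.1 and 109.6 CPM, and was 1.92 times lower, with a ratio interval of 0.467 to 0.582. The ratio was 0.565 within female cells, 0.574 within male cells and 0.571 without possible doublets, and 0.676 in other kept cells. It was found in 438 of 670 DMSO and 375 of 745 STK members. The adaptor Myd88 was at 68.4 and 57.9 CPM, and Irf5, a factor downstream of it, at 169 and 136 CPM. Irf7, the master factor of interferon genes in this lineage, was at 891 and 725 CPM, with a ratio of 0.814 (0.777 to 0.853) in all and 1.01 in male members.

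Interferon transcripts themselves were nearly undetected. The 20 listed type I and III interferon genes held 15 UMIs in 4 DMSO members and 24 UMIs in 8 STK members. The 14 Ifna genes had 3 UMIs in 1 DMSO cell and none in STK, and 3 UMIs correspond to 0.814 and 0.576 CPM in the 2 libraries. The Ifna genes are near-identical, so reads may be lost or split among them. The receptor chains Ifnar1 and Ifnar2 had ratios of 0.979 and 1.01, at 223 and 218.5 CPM and 570.1 and 577 CPM. Socs3, a feedback inhibitor, was at 48.9 and 83.8 CPM (1.72 times higher), with ratios of 1.26 within female and 1.22 within male cells.

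The median ratio of interferon target genes was below 1 over all members. Of 40 measured, none was higher and 6 were at least 1.5 times lower, where 5.02% of all genes were, with a median log2 ratio of -0.215, against 0.002 in other kept cells. Without possible doublets 2 of 36 were higher and 4 lower, beside 5.65% and 5.61% of all genes, with a median of -0.169. Within female cells 3 of 34 were higher and 5 lower, with a median of -0.117. Within male cells 1 of 39 was higher and 5 lower, with a median of -0.000. Isg15, a ubiquitin-like modifier, was at 318 and 269 CPM, Ifi27l2a at 1415 and 1218 CPM and Usp18, which removes ISG15, at 116 and 82.3 CPM. Ifit2, an RNA-binding antiviral protein, had 211 and 167 UMIs and was 1.79 times lower.

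Genes higher in STK members fell into those spread over many cells and those held by few. Rgcc, a regulator of cell cycle and complement response, led the first kind. It had 143 UMIs in 72 DMSO cells and 783 UMIs in 245 STK cells, 38.8 and 150.2 CPM, a ratio of 3.87 (3.23 to 4.66). The ratio was 2.28 within female, 3.15 within male cells and 4.49 without possible doublets. After thinning, 2.84% of DMSO and 12.7% of STK members had an Rgcc UMI (10.7% and 32.9% unthinned), against 3.36% and 6.79% of the T cell gate (10.3% and 19.6% unthinned).

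Bcl2l11, which encodes the pro-apoptotic protein BIM, had 36.1 and 91.7 CPM, a ratio of 2.54 (2.09 to 3.10), with a UMI in 103 DMSO and 296 STK members. Gcnt2, a glycan-branching enzyme, had 24.2 and 62.7 CPM (2.60). Vps37b, a subunit of the ESCRT-I sorting complex, had 65.2 and 162 CPM (2.49), and Pde4b, a cyclic AMP phosphodiesterase, 46.7 and 110.5 CPM (2.37). Gpr18, a lipid-sensing receptor, had 57.6 and 120.5 CPM (2.09), Crem, a cyclic AMP response factor, 30.4 and 65.6 CPM (2.16), and Runx3, a lineage factor, 63.5 and 131 CPM (2.07). Each of these 8 genes, Rgcc included, had ratios above 1.5 within female and within male cells and without possible doublets. In other kept cells Vps37b, Crem, Gpr18 and Rgcc were higher as well, at ratios of 3.03, 3.10, 2.53 and 2.56, while Filip1l and Spsb2, with ratios of 2.19 and 2.09 in the members, had 1.05 and 0.973 there. After thinning, a Pde4b UMI was found in 7.99% of DMSO and 14.5% of STK cells of the T cell gate (29.2% and 43.2% unthinned). For Bcl2l11 the T cell shares were 7.05% and 10.8% (25.1% and 36% unthinned), so both were higher there too. Vps37b, Pde4b, Gpr18, Runx3, Filip1l and Spsb2 come from the ranking without possible doublets, which shared 3 of its 14 higher genes with that over all members and was added after the values were seen.

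The second kind were genes of neutrophils, plasma cells and epithelium. Ngp, a neutrophil granule gene, had 0 UMIs in DMSO and 522 in STK members and was at least 123-fold higher against a floor of 3 UMIs in the library, with 90% of its UMIs in 5 cells. Camp, another granule gene, had 1 and 313 UMIs, a ratio of 221 (39.4 to 8765). Jchain, which links secreted antibodies, had 6 and 750 UMIs, and 90% of the latter lay in 1 cell. S100a9 was at 154 and 1021 CPM and S100a8 at 109 and 607 CPM, with 90% of their STK UMIs in 14 cells each. Krt8, a keratin, had 153 and 634 UMIs, with 90% of the latter in 27 cells. The neutrophil list had 9 of 10 genes measured, of which 7 were higher, beside 7.37% of all genes. Its summed level was 385 and 2163 CPM.

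Without possible doublets, a set that leaves out cells by their neutrophil UMIs, S100a9 was at 4.31 and 4.38 CPM and Krt8 at 15.8 and 17.5 CPM. Jchain then had 4 and 2 UMIs, and the ratios of S100a8, Pglyrp1 and G0s2 were below 1. Cd9, a tetraspanin found in 37 and 94 cells, kept a ratio of 3.02 but from 9 and 29 UMIs. Doublets were not identified by experiment, and whether neutrophils shared droplets with pDC was not tested.

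**Figure D5:**
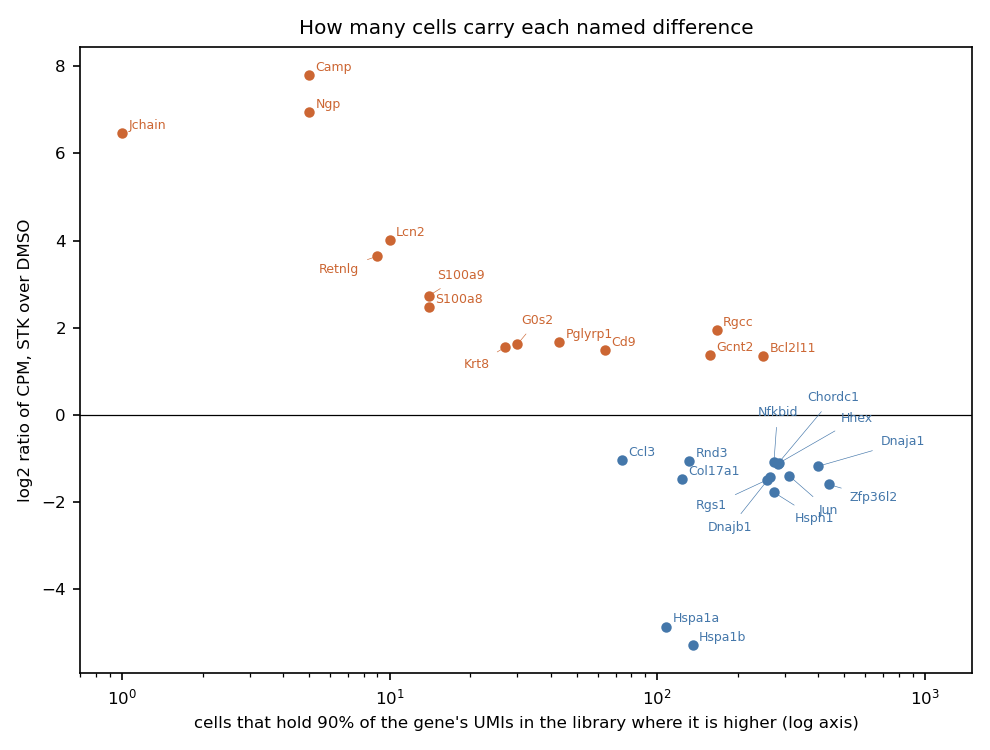
Log2 ratio of CPM, STK over DMSO (y axis), against the number of cells that hold 90% of a gene's UMIs in the library where it is higher (x axis, log scale), for the 14 highest (orange) and 14 lowest (blue) genes. Jchain rests on 1 cell and Camp and Ngp on 5 each, while Rgcc, Gcnt2, Bcl2l11 and all blue genes rest on 74 cells or more.

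The series addresses sterol esters and GPR132, a G protein-coupled receptor. Gpr132 (ENSMUSG00000021298, chromosome 12 from 112850873 to 112868228, minus strand) had 155 UMIs in 119 DMSO members and 522 in 334 STK members, 42.1 and 100.2 CPM, a ratio of 2.38 (1.99 to 2.87). Female members gave a ratio of 1.44 from 38 and 350 UMIs, and male members gave 2.42 from 55 and 59 UMIs. Without possible doublets it was 2.52. Other kept cells had 53.5 and 131 CPM, a ratio of 2.46. Thinned shares were 4.63% (3.17 to 6.50) and 10.2% (8.14 to 12.6) of members (17.8% and 44.8% unthinned) and 9.43% and 20.5% of the T cell gate (31.4% and 56.7% unthinned). In the hepatocyte or tumour gate none of 207 and 141 thinned cells had a Gpr132 UMI, which allows shares of up to 1.77% and 2.58% of cells with a UMI at 1000 UMIs per cell (exact Clopper-Pearson limit). Unthinned, 1.91% and 4.79% of that gate had one. That gate had median depths of 24063 and 25089 UMIs. Soat1, the sterol acyltransferase of most tissues, had 96 and 143 UMIs, a ratio of 1.05 (0.807 to 1.38), and Soat2, the liver and gut form, had 4 and 22 UMIs.

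Most other sterol genes were near equality. Of 15 measured genes of the sterol ester and oxysterol list, 1 was higher, Gpr132 itself, and 2 were lower, and without possible doublets 2 of 12 were higher and 1 lower. Cholesterol synthesis genes had 1 of 25 higher and 1 lower, with a median of -0.018, and their median in other kept cells was -0.259. Over all genes 7.37% were higher and 5.02% lower in the members. Insig1, which holds back the regulator of this pathway, was at 60.0 and 62.7 CPM. Gpr183, an oxysterol receptor that guides dendritic cells, was at 104 and 109 CPM, and Ch25h, which makes its ligand's precursor, had 1 and 2 UMIs. Gpr65, a proton-sensing relative of Gpr132, had 77 and 138 UMIs, a ratio of 1.27 (0.952 to 1.70).

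Antigen presentation genes were mostly within 1.5-fold. Of 17 measured class II and costimulatory genes, 1 was higher and 1 lower, close to the 7.37% and 5.02% of all genes, with a median of 0.132. Without possible doublets 2 of 16 were higher and 2 lower, with a median of 0.077, and the median in other kept cells was 0.385. Cd74, the class II invariant chain, was at 9786 and 11500 CPM (1.18), H2-Aa, a class II alpha chain, at 2899 and 3519 CPM (1.21) and H2-Ab1, its beta chain, at 1747 and 2117 CPM (1.21). The costimulatory gene Cd86 had 52 and 98 UMIs, and Cd83, a maturation marker, was at 56.5 and 87.9 CPM, with a ratio of 1.56 in all and 0.776 in female members. Oxidative phosphorylation genes had a median of 0.130 with none of 20 past 1.5-fold.

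Genes of trafficking and of inhibition were close in the 2 libraries. Of 16 measured migration genes, 1 was higher and 1 lower, beside 7.37% and 5.02% of all genes, with a median of -0.013. Cxcr3, a receptor for interferon-induced chemokines, was at 88.0 and 72.7 CPM. S1pr4, a sphingosine phosphate receptor, was 1.57 times lower, with a ratio of 0.953 within female cells. None of the 15 inhibitory receptor and adaptor genes was past 1.5-fold. Tyrobp, the DAP12 adaptor through which Siglec-H signals, was at 5837 and 5780 CPM, and Ptprs, a phosphatase that restrains the lineage, at 206 and 202 CPM.

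Glucocorticoid-responsive genes gave mixed values, with 2 of 11 measured higher and 3 lower, beside 7.37% and 5.02% of all genes. Tsc22d3, which encodes GILZ, was at 821 and 516.5 CPM (1.59 times lower) and Fkbp5, a steroid receptor chaperone, at 61.4 and 32.0 CPM (1.92 times lower). Both were below equality within female and within male cells. Proliferation genes had 7 of 31 higher and 1 lower, with a median of 0.345. Without possible doublets, 1 of 18 measured was higher and 2 lower, with a median of 0.089. Mki67, which marks cycling cells, had 82 UMIs in 35 DMSO and 111 UMIs in 45 STK members, a ratio of 0.957. Marker lists of other cells were present at differing levels. T cell genes summed to 45.9 and 44.7 CPM and NK cell genes to 290 and 432 CPM. Macrophage and monocyte genes summed to 1535 and 2112 CPM and hepatocyte or tumour genes to 2474 and 3146 CPM. In other kept cells these last 2 lists stood at 6592 and 8058 CPM and at 10510 and 8046 CPM. The part of these lists in the differences was not tested.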

How the data were processed

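Single-cell data were used as deposited: the authors' files give, for each gene and barcode, raw UMI counts written by Cell Ranger 6.0.2 per the file headers, with reads placed on GRCm38 (mm10) per the submitters' processing notes. Aligner settings and the annotation release are not named there, and each matrix lists 32285 genes. Members and lists were chosen with earlier results of these data known.

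UMIs were summed per gene over the gated cells of a library and scaled to CPM. A ratio is STK over DMSO with an exact conditional binomial 95% interval, shares have exact Clopper-Pearson 95% intervals, and all cover counting error only. A gene counted as higher or lower past 1.5-fold, among genes with at least 30 UMIs over both libraries. A library at 0 was set to a floor of 3 UMIs. Named genes were the 6 markers, the 14 highest and 14 lowest with 50 or more CPM and UMIs in the higher library (without receptor and immunoglobulin segments, mitochondrial, ribosomal, sex-linked, haemoglobin and hepatocyte genes and gene models), list members furthest from equal or of a stated role, and Gpr132, Soat1 and Soat2. Fos, Crem, Nr4a3 and the genes of the ranking without possible doublets were added after the values were seen. Some genes that the rule names are not reported here.

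Scrublet (scanpy 1.11.5, expected rate 8%) marked no STK cell at its automatic threshold, so 1 score threshold of 0.25 was used in both libraries, chosen after seeing the data. It marked 3.55% of DMSO and 3.92% of STK kept cells. Doublets were kept in the main values. Thinning drew 1000 UMIs per cell and left out 0 DMSO and 2 STK members, and 31 and 35 cells of the T cell gate. The ratio and interval code was tested on simulated counts. Gene positions are from GENCODE vM21 (GRCm38), where all 638 genes looked up matched by identifier, and promoter windows from RefSeq, where all 6 shown matched. The first start listed for a gene was used. Analyses ran in Python 3.11.15 with numpy 2.4.6 and scipy 1.17.1.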

Additional observations from a re-analysis of the deposited data

How the results depend on the processing

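With 1 library per group no library could be left out, and no paired analysis was possible because each group is 1 library. The count of genes at least 1.5 times higher in STK members, 762, was 1254 within female cells, 493 after thinning, 1364 and 311 with minima of 10 and 100 UMIs, 255 at a fold of 2 and 505 without possible doublets. The count of genes at least 1.5 times lower, 519, was 858 and 225 with minima of 10 and 100 UMIs and 101 at a fold of 2. The ratio of pDC shares, 1.14, was 1.18 without Scrublet-marked cells alone and became 0.940 without possible doublets, an alternative added after seeing the data that leaves out more STK than DMSO members. Both of these alternatives leave the marked cells out of the members and of all kept cells. Among the named genes, Jchain turned to a ratio of 0.453 without cells of over 10000 UMIs and 0.469 without possible doublets, S100a8 to 0.670, Pglyrp1 to 0.781 and G0s2 to 0.774 without possible doublets. Beside these, 321 values of named genes stayed within their counting interval and 144 moved beyond it. Scaling alternatives moved the median log2 ratio by -0.008 and -0.011. Depth limits genes under about 30 UMIs, and the female DMSO members, 86 cells, limit every value within female cells.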

Other observations

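Among members without possible doublets, Ccl4, Klk1 and Cd74 had the most variable counts per cell when genes were ranked by the lower value of the 2 libraries. In DMSO alone, Malat1 stood above Klk1 and Cd74. After thinning, Ccl4 had a Fano factor (variance over mean) of 11.3 in DMSO and 10.0 in STK members, Klk1 4.34 and 4.93, Cd74 4.19 and 4.46, the nuclear RNA Malat1 4.92 and 2.76, Ly6a 2.63 and 2.77, Actb 2.79 and 2.62, Ly6c2, a surface antigen of pDC and monocytes, 2.62 and 3.11, and Ly6d 3.18 and 2.59. Isg15 had 2.42 and 2.67 at means of 0.218 and 0.242 UMIs per thinned cell.

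Female and male members differed in a few autosomal genes in the same direction in both libraries. Values here are without possible doublets, and females and males are different animals, so sex and animal cannot be told apart. The lincRNA Gm34680 (ENSMUSG00000116957, chromosome 16 from 32550211 to 32553708, plus strand, GRCm38), chosen after its values were seen, had 33.9 CPM in female and 237 CPM in male DMSO members, and 4.89 and 101 CPM in STK members. Over all members it had 620 and 137 UMIs and was 6.403 times lower in STK. Gpr132 was 3.39 and 1.96 times higher in female members of the DMSO and STK libraries, Rgcc 2.88 and 1.93 times and Rgs1 1.70 and 1.34 times. Ccl4 was 1.57 and 1.40 times higher in female members, and Klk1 1.53 and 1.21 times. Isg15 was lower in female members, with female over male ratios of 0.581 and 0.510. Tlr7, an X-linked gene reported to escape inactivation, had ratios of 1.03 (0.725 to 1.43) and 0.697 (0.550 to 0.888). The DMSO interval spans 1 and overlaps that of STK, so only the STK library gave a direction.

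Across the 6 gates of both libraries, 12 points that share libraries, genes most like Siglech by Pearson correlation of log2(CPM + 1) included Pgam2 (0.986), Sh3bgr (0.985), Atp2a1 (0.983), Klk1 (0.981) and Cox6a2 (0.974). Siglech, Klk1 and Cox6a2 set the pDC gate, which supplies the high points, so these values follow in part from the rule and describe the gates alone. Pgam2, Atp2a1 and Cox6a2 are known from muscle.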
